A study of Mus musculus with 25 samples.

Results

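The genes described here are 40 mouse genes that act in DNA replication and in mitosis, from the G1 cyclins through the replication machinery to the spindle and cytokinesis. They were taken from a list of gene symbols by function, drawn up with earlier results of these data known. A symbol was kept when its summed count over the 25 libraries of the series reached 100. All 40 were kept, of 24421 gene symbols counted, with summed counts from 157 for Ccnb1 to 50795 for Ccnd2. All 40 also passed the filter on low counts that left 15912 genes for testing, so none is missing from the counts of genes given here.

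The libraries were made from mouse hippocampus, a brain region in which new neurons are still born after birth. The mice were wild type or Scn1a+/-, that is, heterozygous for loss of Scn1a, the gene of a voltage-gated sodium channel. Both genotypes were sampled at postnatal day 14 (P14) and postnatal day 24 (P24) on 2 backgrounds: 129S6/SvEvTac, called 129S6 here, or [129S6/SvEvTac x C57BL/6]F1, called F1. A 9th group held P24 F1 Scn1a+/- mice with seizures, and the other 8 groups were free of seizures by their labels. Each group had 3 libraries, except 2 for P14 129S6 wild type and 2 for P24 F1 Scn1a+/- without seizures. Each library was a pool of hippocampi, from 3 to 4 mice in the seizure group and from 12 to 16 mice elsewhere. The labels name neither sex nor litter, and nothing in them says that pools of a group came from separate days. A p-value therefore reflects how much these pools vary, with the same spread of a gene assumed for all groups. Total counts ranged from 7436442 to 25520050 per library, all 9 hippocampal neuron markers were detected in every group, and no 2 libraries of a group agreed within sampling noise.

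Scn1a itself checked the genotype labels. It was lower in the Scn1a+/- libraries at P14, with 98.1 ± 4.68 against 111 ± 5.36 CPM (counts scaled to the library's effective total; mean ± SD, n = 3 and 2) in 129S6 and 91.1 ± 1.33 against 103 ± 2.22 CPM (n = 3 and 3) in F1. The P24 F1 libraries gave 127 ± 2.79 CPM in wild type (n = 3), 104 ± 16 CPM in Scn1a+/- (n = 2) and 79.9 ± 10.3 CPM in the seizure group (n = 3). The P24 129S6 libraries went against their labels, with 140 ± 4.95 CPM in those labelled Scn1a+/- and 110 ± 0.74 CPM in those labelled wild type (n = 3 each), and the deposited names of their tables write the opposite genotype. Age and strain are compared here with both genotypes averaged, so those results do not depend on which label is right.

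By way of background, D-type and E-type cyclins carry a cell out of G1, the MCM helicase and the PCNA clamp copy the DNA in S phase, and cyclin A, the B cyclins and Cdk1 drive entry into mitosis. Aurora, Polo and Bub kinases then control chromosome attachment, kinesins and other microtubule proteins build the spindle, and the anaphase-promoting complex (APC/C) ends mitosis. In the hippocampus after birth, dividing cells include the progenitors of dentate gyrus granule neurons and those of glia. Genes of DNA replication are classically regulated by E2F factors, and genes of G2 and mitosis by the DREAM and MuvB complexes, which act through the cell cycle genes homology region (CHR), together with NF-Y at CCAAT boxes.

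Promoter windows from RefSeq (GRCm38.p6, 250 bases before to 50 after a start site) were found for 33 of the 40 genes, and Ccnd1, Ccnd2, Mcm4, Ccna2, Aurkb, Kif20a and Tpx2 had none. Both strands were searched for the CHR (TTTGAA or TTCGAA), the CCAAT box (CCAAT) and E2F sites (TTTCCCGC, TTTCGCGC, TTTGCCGC or TTTGGCGC), and overlapping matches were all kept. A CHR was present in 21 of 33 genes (63.6%, against 19.2% of all 32851 windows of that length), a CCAAT box in 28 (84.8%, against 37.4%) and an E2F site in 5 (15.2%, against 2.26%). When only the 250 bases before the start were searched, the CHR remained in 13 of 33 genes (39.4%, against 17.1% of all windows). The E2F letters were in Mcm3, Mcm5, Mcm6, Mcm7 and Cdk1, so 4 of the 5 are helicase genes. The CHR was in 7 of 9 spindle genes, in 3 of 3 APC/C genes and in 4 of 5 mitotic kinase and passenger genes, but in 3 of 10 replication genes. These are letter matches, not measured sites. The 150 bases before the gene are shown for 9 genes that span both kinds, 6 of mitosis and 3 of replication, 5′ to 3′ on the gene's own strand with matches in capitals. They lie at chr10:69352913-69353062 (minus strand), chr9:70421555-70421704 (minus), chr4:118437344-118437493 (minus), chr19:37376232-37376381 (plus), chr11:99024200-99024349 (minus), chr7:135716451-135716600 (minus), chr8:75109318-75109467 (plus), chr1:128359706-128359855 (minus) and chr2:132253181-132253330 (minus).
Cdk1: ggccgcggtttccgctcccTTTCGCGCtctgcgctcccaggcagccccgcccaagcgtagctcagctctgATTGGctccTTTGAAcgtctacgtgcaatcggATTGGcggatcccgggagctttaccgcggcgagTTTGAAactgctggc
Ccnb2: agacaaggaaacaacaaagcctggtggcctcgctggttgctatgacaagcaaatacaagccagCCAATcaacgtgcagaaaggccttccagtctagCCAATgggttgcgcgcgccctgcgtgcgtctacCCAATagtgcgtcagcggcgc
Cdc20: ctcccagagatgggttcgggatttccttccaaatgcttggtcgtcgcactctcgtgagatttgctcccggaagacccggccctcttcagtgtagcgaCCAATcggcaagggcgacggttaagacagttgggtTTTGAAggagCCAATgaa
Kif11: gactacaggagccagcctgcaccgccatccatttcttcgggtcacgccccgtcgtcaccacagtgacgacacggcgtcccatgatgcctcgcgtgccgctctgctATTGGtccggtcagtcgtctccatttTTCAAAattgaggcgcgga
Top2a: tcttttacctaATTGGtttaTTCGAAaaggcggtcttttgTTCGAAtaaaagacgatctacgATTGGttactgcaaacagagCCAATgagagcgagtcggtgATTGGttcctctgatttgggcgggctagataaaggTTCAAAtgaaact
Mki67: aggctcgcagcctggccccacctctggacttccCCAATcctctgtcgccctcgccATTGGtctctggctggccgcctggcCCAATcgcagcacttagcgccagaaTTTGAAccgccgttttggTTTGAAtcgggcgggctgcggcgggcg
Mcm5: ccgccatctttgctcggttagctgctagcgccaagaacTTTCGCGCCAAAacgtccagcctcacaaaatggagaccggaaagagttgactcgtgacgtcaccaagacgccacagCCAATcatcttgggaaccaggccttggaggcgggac
Mcm6: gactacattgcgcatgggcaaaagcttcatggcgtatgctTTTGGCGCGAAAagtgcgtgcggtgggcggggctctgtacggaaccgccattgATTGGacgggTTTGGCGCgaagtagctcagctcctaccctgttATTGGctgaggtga
Pcna: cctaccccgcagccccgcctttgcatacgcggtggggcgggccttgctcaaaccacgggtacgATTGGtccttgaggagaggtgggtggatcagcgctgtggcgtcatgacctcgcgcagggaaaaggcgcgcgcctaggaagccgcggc

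Cdk1 carried 2 CHR matches, 2 CCAAT boxes and 1 E2F match in these bases, Top2a 3 CHR matches and 4 CCAAT boxes, and Mki67 2 and 3. Cdc20 and Kif11 each had 1 CHR match, the latter on the other strand. Ccnb2 showed 3 CCAAT boxes and no CHR match in these bases, although its whole window holds one. Mcm6 had 3 E2F matches, of which a pair overlap, Mcm5 had 2 overlapping E2F matches, and neither had a CHR match. Pcna showed a single CCAAT box and no other match in these bases.

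Between P14 and P24 most of these genes fell in both strains. Of the 40, 30 were lower and 0 higher at P24 in 129S6, where 17.1% of all genes tested were lower and 17.3% higher, and 29 were lower and 1 higher in F1, where 19.4% were lower and 19% higher. The median log2 change of the 40 was -0.93 in 129S6 and -0.93 in F1, against 0.01 and 0.00 over all genes tested. The P24 libraries lay below those of P14 without overlap for 18 of 40 genes in 129S6 (12.4% of all genes) and for 22 in F1 (12.6%), and above them for 0 (12.1%) and 1 (12.3%). In bulk tissue, fewer cells of a type and less RNA per cell cannot be told apart. Calls were made by edgeR's quasi-likelihood test on counts, in a model of all 9 groups, at a Benjamini-Hochberg adjusted p under 0.05 over all genes tested, and every adjusted p given here is from that test.

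The summed level of 38 of the genes, without the abundant D cyclins, separated the ages in both strains. It was 178 to 185 CPM in the P14 129S6 libraries and 114 to 122 CPM in those of P24, so that the P24 mean was 64.9% of the P14 mean. In F1 it was 197 to 215 CPM at P14 and 127 to 138 CPM at P24, or 63.7%. Levels between genes differ widely: per kilobase of exon, the mean of P14 129S6 wild type was 16.7 CPM for Ccnd2, 8.91 for Ccnd1, 4.16 for Pcna and 0.235 for Ccnb1.

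**Figure D1:**
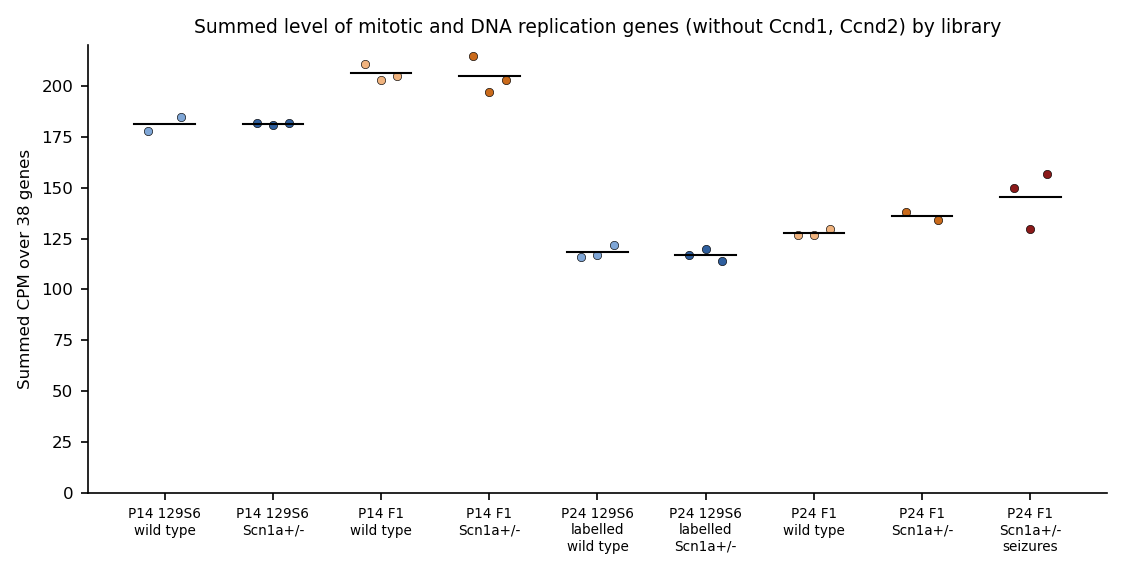
Summed CPM (y axis) of 38 mitotic and DNA replication genes, without Ccnd1 and Ccnd2, in each of the 25 libraries (points) of the 9 groups (x axis), with the group mean as a short line. The P24 libraries without seizures lie between 114 and 138 CPM, all below the P14 libraries at 178 to 215, and the 3 seizure libraries are at 130, 150 and 157.

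A total of 25 genes were lower in both strains, which is 83.3% of those lower in 129S6 and 86.2% of those lower in F1. The calls of Ccnd1, Mcm6, Asf1b, Aurka and Plk1 were made in 129S6 alone, and those of Mcm3, Mcm5, Mcm7 and Cenpe in F1 alone, while 6 genes (Ccne1, Mcm4, Pcna, Rrm1, Tyms and Kif20a) were not lower in either. The difference between the strains in the change with age was itself tested, and 0 of 40 genes passed by edgeR or DESeq2, with the smallest adjusted p at 0.504 for Ccnd1. At an unadjusted p under 0.05, which some genes pass where nothing differs, there were 4 (Ccnd1, Cenpe, Ccnb1 and Kif23). Over all genes tested 0.00628% were called higher at an adjusted p under 0.05, a single gene. Across the 40 genes the changes of both strains had a Pearson r of 0.85 and a Spearman correlation of 0.87, given as a description since genes are not independent replicates.

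**Figure D2:**
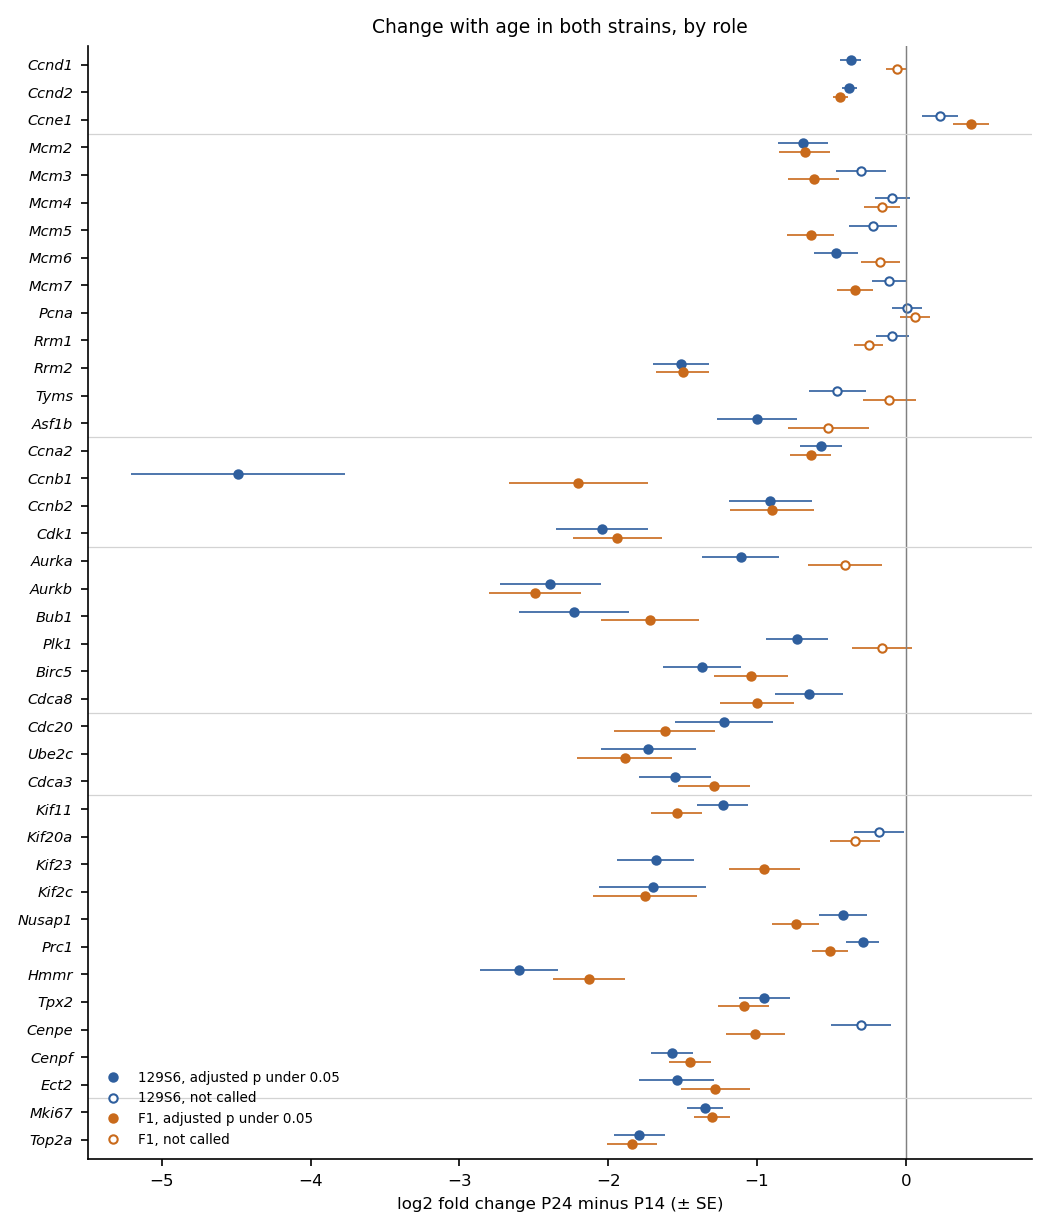
Log2 fold change from P14 to P24 (x axis, ± SE) for each of the 40 genes (y axis, grouped by role) in 129S6 (blue) and F1 (orange), with filled points for an adjusted p under 0.05. Genes of mitosis lie mostly beyond -1, most replication genes lie closer to 0, and Ccne1 is the only gene called to the right of 0.

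In the lists of levels that follow, wild-type libraries come before Scn1a+/- libraries, in both strains and at both ages, and genotypes of P24 129S6 are as labelled. Mki67, the widely used marker of cycling cells, stood at 16.8, 13.9, 15.4, 14.5 and 15.3 CPM in the P14 129S6 libraries and at 5.37, 4.89, 8.11, 5.1, 7.5 and 5.4 CPM in those of P24. In F1 the levels of Mki67 were 15.4, 19.2, 18.5, 15.7, 16.4 and 15.9 CPM at P14 and 7.43, 6.48, 5.96, 6.75 and 7.27 CPM at P24. Mki67 fell by 1.35 ± 0.12 in 129S6 and by 1.30 ± 0.12 in F1 on the log2 scale (adjusted p = 8.81e-11 and 1.52e-10), and the P14 and P24 libraries did not overlap in either strain. Top2a, which untangles DNA before chromosomes separate, was measured at 6.72, 9.42, 9.59, 9.17 and 7.26 CPM at P14 and at 2.86, 1.95, 2.94, 2.55, 2.76 and 1.7 CPM at P24 in 129S6. The F1 libraries held Top2a at 8.49, 8.46, 8.39, 8.84, 7.8 and 10.1 CPM at P14 and at 2.67, 2.44, 1.56, 3.12 and 2.28 CPM at P24. Top2a fell by 1.79 ± 0.17 in 129S6 and by 1.84 ± 0.17 in F1 on the log2 scale (adjusted p = 4.61e-10 and 2.36e-10), and the P14 and P24 libraries did not overlap in either strain. Mki67 at P24 was at most 8.11 CPM in the libraries without seizures, and at P14 it was at least 13.9 CPM. Both genes hold a CHR in the bases shown above.

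Among the cyclins of S phase, G2 and mitosis with Cdk1, 4 of 4 were lower in 129S6 and 4 of 4 in F1. For Cdk1, the kinase that drives mitotic entry, the 129S6 libraries gave 2.51, 3.67, 2.54, 3.72 and 2.13 CPM at P14 and 0.34, 0.755, 0.811, 0.911, 0.153 and 1.26 CPM at P24. F1 levels of Cdk1 went from 2.75, 3.11, 3.78, 2.21, 4.17 and 4.62 CPM at P14 to 0.49, 0.757, 1.19, 1.3 and 0.722 CPM at P24. Cdk1 fell by 2.04 ± 0.31 in 129S6 and by 1.94 ± 0.30 in F1 on the log2 scale (adjusted p = 3.85e-06 and 3.96e-06), and the P14 and P24 libraries did not overlap in either strain. Ccna2, cyclin A, which acts with Cdk1 and Cdk2, stood at 6.59, 8.66, 6.87, 7.59 and 8.08 CPM in the P14 129S6 libraries and at 4.9, 4.92, 4.26, 4.55, 5.21 and 6.65 CPM in those of P24. In F1 the levels of Ccna2 were 7.99, 6.48, 7.56, 8.67, 4.84 and 8.41 CPM at P14 and 3.38, 4, 4.12, 6.41 and 5.39 CPM at P24. Ccna2 fell by 0.57 ± 0.14 in 129S6 and by 0.64 ± 0.14 in F1 on the log2 scale (adjusted p = 0.00176 and 5.75e-04), and the groups overlapped in both strains. Ccnb2, a B cyclin, was measured at 1.13, 2.84, 2.26, 1.11 and 1.77 CPM at P14 and at 0.884, 0.993, 1.62, 1, 0.766 and 0.813 CPM at P24 in 129S6. The F1 libraries held Ccnb2 at 2.66, 1.19, 1.89, 2.12, 1.21 and 2.22 CPM at P14 and at 0.846, 1.22, 1.19, 0.693 and 1.11 CPM at P24. Ccnb2 fell by 0.91 ± 0.28 in 129S6 and by 0.90 ± 0.28 in F1 on the log2 scale (adjusted p = 0.0106 and 0.0104), with overlapping groups in both strains. The call of Ccnb2 was lost in 129S6 without P14 wild-type pool 2 (adjusted p = 0.246) and in F1 without P24 Scn1a+/- pool 1 (adjusted p = 0.0541). Ccna2 overlaps Exosc9 and the kit does not mark strand, so reads of the pair may be mixed.

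Ccnb1, the main mitotic B cyclin, was the rarest of the 40. Its 129S6 libraries held 0.942, 1.07, 0.658, 0.633 and 0.499 CPM at P14 and 0.204, 0.119, 0.101, 0, 0 and 0 CPM at P24, with the 3 zeros in the libraries labelled Scn1a+/-. The P24 libraries of 129S6 gave 7 counts in all and the P14 libraries 58, so that the P24 level was 10.7% of the P14 level (95% exact interval 4.1 to 23.4%, counting error only). F1 gave 16 and 59 counts, or 19.4% (10.4 to 34.2%). The fitted log2 changes of -4.49 ± 0.72 and -2.20 ± 0.47 (adjusted p = 1.10e-05 and 4.09e-04) depend on the prior count of the fit at such low counts, and without Ccnb1 the medians over the other genes were -0.91 and -0.90.

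Mitotic kinases, checkpoint and chromosomal passenger genes were lower in 6 of 6 cases in 129S6 and in 4 of 6 in F1. For Aurkb, the kinase of the chromosomal passenger complex, the 129S6 libraries gave 1.19, 1.39, 1.79, 1.9 and 1.54 CPM at P14 and 0.34, 0.318, 0.304, 0.273, 0.306 and 0.148 CPM at P24. F1 levels of Aurkb went from 2.41, 1.32, 2.42, 1.77, 2.82 and 1.85 CPM at P14 to 0.356, 0.379, 0.137, 0.52 and 0.389 CPM at P24. Aurkb fell by 2.39 ± 0.34 in 129S6 and by 2.49 ± 0.31 in F1 on the log2 scale (adjusted p = 1.03e-06 and 7.89e-08), and the P14 and P24 libraries did not overlap in either strain. Bub1, a kinase of the spindle checkpoint, stood at 1.95, 1.26, 0.846, 1.66 and 1.59 CPM in the P14 129S6 libraries and at 0.476, 0.477, 0.405, 0.182, 0.306 and 0.148 CPM in those of P24. In F1 the levels of Bub1 were 2.16, 0.727, 1.21, 1.95, 2.42 and 1.94 CPM at P14 and 0.134, 0.715, 0.367, 0.693 and 0.555 CPM at P24. Bub1 fell by 2.23 ± 0.37 in 129S6 and by 1.72 ± 0.33 in F1 on the log2 scale (adjusted p = 1.35e-05 and 1.03e-04), and the P14 and P24 libraries did not overlap in either strain. Birc5, survivin, a passenger protein, was measured at 2.57, 3.22, 2.26, 1.9 and 3.4 CPM at P14 and at 0.884, 0.913, 0.811, 0.729, 1.61 and 1.4 CPM at P24 in 129S6. The F1 libraries held Birc5 at 2.58, 3.57, 1.97, 4.95, 3.5 and 1.76 CPM at P14 and at 1.42, 1.26, 1.79, 1.21 and 1.67 CPM at P24. Birc5 fell by 1.37 ± 0.26 in 129S6 and by 1.04 ± 0.25 in F1 on the log2 scale (adjusted p = 8.87e-05 and 0.00111), and the groups overlapped in F1 alone. Cdca8 (borealin, a passenger protein) fell 1.57-fold and 2-fold (SE 0.23 and 0.25 on the log2 scale), and its 129S6 call was lost in 6 of 16 alternatives. Aurka, the kinase of the spindle poles, changed by -1.11 ± 0.26 in 129S6 and Plk1, the Polo kinase, by -0.73 ± 0.21. Their F1 values were -0.41 ± 0.25 (adjusted p = 0.21) and -0.16 ± 0.20 (adjusted p = 0.563), and the differences between the strains had adjusted p = 0.627 and 0.62. Without P14 wild-type pool 1 the 129S6 call of Plk1 was lost (adjusted p = 0.0846), and Aurka overlaps Cstf1.

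The APC/C genes and substrates were lower in 3 of 3 cases in both strains. For Cdca3, a factor that promotes mitotic entry, the 129S6 libraries gave 2.51, 2.78, 2.26, 2.77 and 3.77 CPM at P14 and 0.952, 1.11, 1.01, 1.18, 0.919 and 0.591 CPM at P24. F1 levels of Cdca3 went from 2.58, 2.71, 4.08, 2.92, 1.61 and 3.05 CPM at P14 to 0.935, 0.757, 1.83, 1.13 and 1.17 CPM at P24. Cdca3 fell by 1.55 ± 0.24 in 129S6 and by 1.29 ± 0.24 in F1 on the log2 scale (adjusted p = 5.56e-06 and 5.65e-05), and the groups overlapped in F1 alone. Ube2c, the ubiquitin-conjugating enzyme of the APC/C, stood at 2.2, 1.64, 0.941, 1.74 and 1.95 CPM in the P14 129S6 libraries and at 0.884, 0.318, 0.304, 0.364, 0.842 and 0.443 CPM in those of P24. In F1 the levels of Ube2c were 3.5, 1.79, 1.74, 2.21, 1.35 and 1.85 CPM at P14 and 0.712, 0.757, 0.458, 0.433 and 0.5 CPM at P24. Ube2c fell by 1.73 ± 0.32 in 129S6 and by 1.89 ± 0.32 in F1 on the log2 scale (adjusted p = 5.98e-05 and 1.55e-05), and the P14 and P24 libraries did not overlap in either strain. Cdc20, the activator of the APC/C, was measured at 1.13, 1.39, 2.45, 1.66 and 1.45 CPM at P14 and at 0.612, 0.397, 0.709, 0.273, 0.842 and 1.11 CPM at P24 in 129S6. The F1 libraries held Cdc20 at 3.5, 2.31, 1.81, 1.5, 0.942 and 1.66 CPM at P14 and at 0.623, 0.505, 1.19, 0.606 and 0.389 CPM at P24. Cdc20 fell by 1.22 ± 0.33 in 129S6 and by 1.62 ± 0.34 in F1 on the log2 scale (adjusted p = 0.00431 and 2.60e-04), and the groups overlapped in F1 alone. All 3 have a CHR and a CCAAT box in their promoter windows. Cdc20 overlaps Elovl1.

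Of 11 spindle, kinesin and cytokinesis genes, 9 were lower in 129S6 and 10 in F1. For Hmmr, a microtubule-associated spindle protein and hyaluronan receptor, the 129S6 libraries gave 2.95, 3.67, 1.88, 3.64 and 2.95 CPM at P14 and 0.952, 0.357, 0.405, 0.182, 0.536 and 0.591 CPM at P24. F1 levels of Hmmr went from 2.75, 2.38, 1.97, 4.16, 4.04 and 4.99 CPM at P14 to 0.623, 0.631, 0.825, 0.693 and 0.833 CPM at P24. Hmmr fell by 2.60 ± 0.26 in 129S6 and by 2.13 ± 0.24 in F1 on the log2 scale (adjusted p = 1.34e-09 and 2.16e-08), and the P14 and P24 libraries did not overlap in either strain. Cenpf, a kinetochore protein, stood at 7.66, 8.79, 6.96, 7.91 and 9.21 CPM in the P14 129S6 libraries and at 2.31, 2.34, 1.93, 2.46, 3.75 and 3.77 CPM in those of P24. In F1 the levels of Cenpf were 8.32, 7.74, 9, 7.96, 8.74 and 6.84 CPM at P14 and 2.09, 2.4, 3.48, 3.81 and 2.83 CPM at P24. Cenpf fell by 1.57 ± 0.14 in 129S6 and by 1.45 ± 0.14 in F1 on the log2 scale (adjusted p = 2.05e-10 and 1.22e-09), and the P14 and P24 libraries did not overlap in either strain. Kif11, the kinesin that pushes spindle poles apart, was measured at 4.83, 3.98, 4.7, 4.67 and 3.81 CPM at P14 and at 1.97, 2.03, 2.13, 1.46, 1.76 and 1.85 CPM at P24 in 129S6. The F1 libraries held Kif11 at 7.07, 7.14, 6.12, 5.4, 6.19 and 3.42 CPM at P14 and at 2.63, 1.73, 2.02, 2.16 and 1.61 CPM at P24. Kif11 fell by 1.23 ± 0.17 in 129S6 and by 1.54 ± 0.17 in F1 on the log2 scale (adjusted p = 6.48e-07 and 6.13e-09), and the P14 and P24 libraries did not overlap in either strain. Hmmr was the gene with the largest fall outside Ccnb1 in 129S6, 6.08-fold, and in F1 it fell 4.37-fold.

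The other spindle genes varied in the size of their fall. Ect2, a gene of cytokinesis, fell by 1.54 and 1.28 in 129S6 and F1, Kif2c, a microtubule depolymerase, by 1.70 and 1.75, Kif23, a cytokinesis kinesin, by 1.68 and 0.95, and Tpx2, the activator of Aurora A, by 0.95 and 1.09 on the log2 scale. Nusap1, a spindle microtubule protein, fell by 0.42 and 0.74, and Prc1, which bundles microtubules of the central spindle, by 0.29 and 0.51, and in 129S6 these calls were lost in 8 and 9 of 16 alternatives. The kinetochore motor Cenpe changed by -0.30 ± 0.20 in 129S6 (adjusted p = 0.253) and -1.01 ± 0.20 in F1 (adjusted p = 1.06e-04), and the difference between the strains had an adjusted p of 0.562. Kif20a, a cytokinesis kinesin, was the spindle gene not called in either strain, at -0.18 ± 0.17 and -0.34 ± 0.17, and it overlaps Brd8 and Cdc23, which are also counted.

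DNA replication genes changed less, with 4 of 11 lower in 129S6 and 5 of 11 in F1, and median changes of -0.30 and -0.34. For Rrm2, the small subunit of ribonucleotide reductase, which makes the building blocks of DNA, the 129S6 libraries gave 4.58, 4.8, 2.73, 3.08 and 4.36 CPM at P14 and 1.7, 0.953, 1.82, 1.55, 1.53 and 1.26 CPM at P24. F1 levels of Rrm2 went from 3.83, 4.43, 5.44, 5.84, 5.51 and 5.17 CPM at P14 to 2.23, 1.85, 1.79, 1.99 and 1.33 CPM at P24. Rrm2 fell 2.85-fold in 129S6 and 2.82-fold in F1 (SE 0.19 and 0.18 on the log2 scale, adjusted p = 1.03e-07 and 5.56e-08), and the P14 and P24 libraries did not overlap in either strain. Its partner Rrm1, the large subunit, was at -0.09 ± 0.11 and -0.25 ± 0.10 (adjusted p = 0.545 and 0.0546). Mcm2, a helicase subunit, stood at 5.34, 5.25, 5.93, 6.01 and 4.72 CPM in the P14 129S6 libraries and at 3.06, 3.26, 5.17, 4.28, 2.53 and 2.44 CPM in those of P24. In F1 the levels of Mcm2 were 5.24, 6.35, 6.2, 5.84, 8.47 and 4.62 CPM at P14 and 3.38, 3.45, 3.76, 3.98 and 4.05 CPM at P24. Mcm2 fell by 0.69 ± 0.17 in 129S6 and by 0.68 ± 0.17 in F1 on the log2 scale (adjusted p = 0.00211 and 0.00154), with no overlap in F1 and overlap in 129S6. Mcm5, another subunit, changed by -0.22 ± 0.16 and -0.64 ± 0.16 (adjusted p = 0.32 and 0.00201), and its F1 libraries, at 5.83, 7.01, 5.9, 4.95, 6.05 and 7.95 CPM at P14 and 4.23, 3.53, 4.31, 4.24 and 3.94 CPM at P24, did not overlap. The histone chaperone Asf1b was at 1, 1.52, 1.41, 1.34 and 1.27 CPM at P14 and 0.884, 1.11, 1.42, 0.273, 0.459 and 0.37 CPM at P24 in 129S6, a 2-fold fall (SE 0.27 on the log2 scale, adjusted p = 0.004) with overlapping groups, against a log2 change of -0.52 ± 0.27 in F1 (adjusted p = 0.133). In 129S6 the Asf1b mean of libraries labelled Scn1a+/- went from 1.34 to 0.367 CPM, and that of wild type from 1.26 to 1.14 CPM.

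Within the MCM helicase, whose 6 subunits act as a ring, the changes in 129S6 ran from -0.69 for Mcm2 to -0.09 for Mcm4, and in F1 from -0.68 for Mcm2 to -0.16 for Mcm4. Mcm4 was not called in either strain, with intervals of -0.32 to 0.13 and -0.39 to 0.07. Mcm7 overlaps Ap4m1, and its F1 call (adjusted p = 0.0223) was lost in 5 of 16 alternatives. Pcna, the sliding clamp that also serves DNA repair, was at 0.01 ± 0.10 and 0.06 ± 0.10, with 95% intervals of -0.19 to 0.21 and -0.13 to 0.25, so a fall as large as that of Mki67 lies outside both intervals. Tyms, thymidylate synthase, was at -0.46 ± 0.19 and -0.11 ± 0.18 and was not called.

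The G1 cyclins differed from each other. Ccnd2, a D cyclin and the most abundant of the 40, was measured at 155, 160, 165, 153 and 154 CPM at P14 and at 118, 120, 118, 120, 134 and 112 CPM at P24 in 129S6. The F1 libraries held Ccnd2 at 148, 152, 155, 169, 146 and 152 CPM at P14 and at 120, 117, 123, 111 and 105 CPM at P24. Ccnd2 fell by 0.38 ± 0.05 in 129S6 and by 0.44 ± 0.05 in F1 on the log2 scale (adjusted p = 4.97e-07 and 5.98e-08), and the P14 and P24 libraries did not overlap in either strain. Ccnd1, the other D cyclin, was at 44.3, 40.9, 42, 46.3 and 41.9 CPM at P14 and 30.9, 32.6, 28.4, 32.7, 41.7 and 32.8 CPM at P24 in 129S6, a change of -0.37 ± 0.07 (adjusted p = 5.12e-05) with overlapping groups. Its F1 libraries held 44.9, 46, 48, 45, 46.7 and 50.1 CPM and then 45, 47.1, 42.6, 45.1 and 44.6 CPM, a change of -0.06 ± 0.07 (adjusted p = 0.504), again with overlap. Ccne1, cyclin E, went the other way: its F1 libraries held 8.07, 7.21, 7.03, 6.9, 6.46 and 6.19 CPM at P14 and 8.99, 9.05, 9.71, 9.01 and 10.1 CPM at P24 and did not overlap. Ccne1 rose by 0.44 ± 0.12 in F1 (adjusted p = 0.00362), and in 129S6 it was at 5.77, 5.37, 7.15, 6.48 and 5.54 CPM and then 6.05, 6.51, 8.82, 5.74, 7.04 and 7.91 CPM, a change of 0.23 ± 0.12 that was not called (adjusted p = 0.15).

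**Figure D3:**
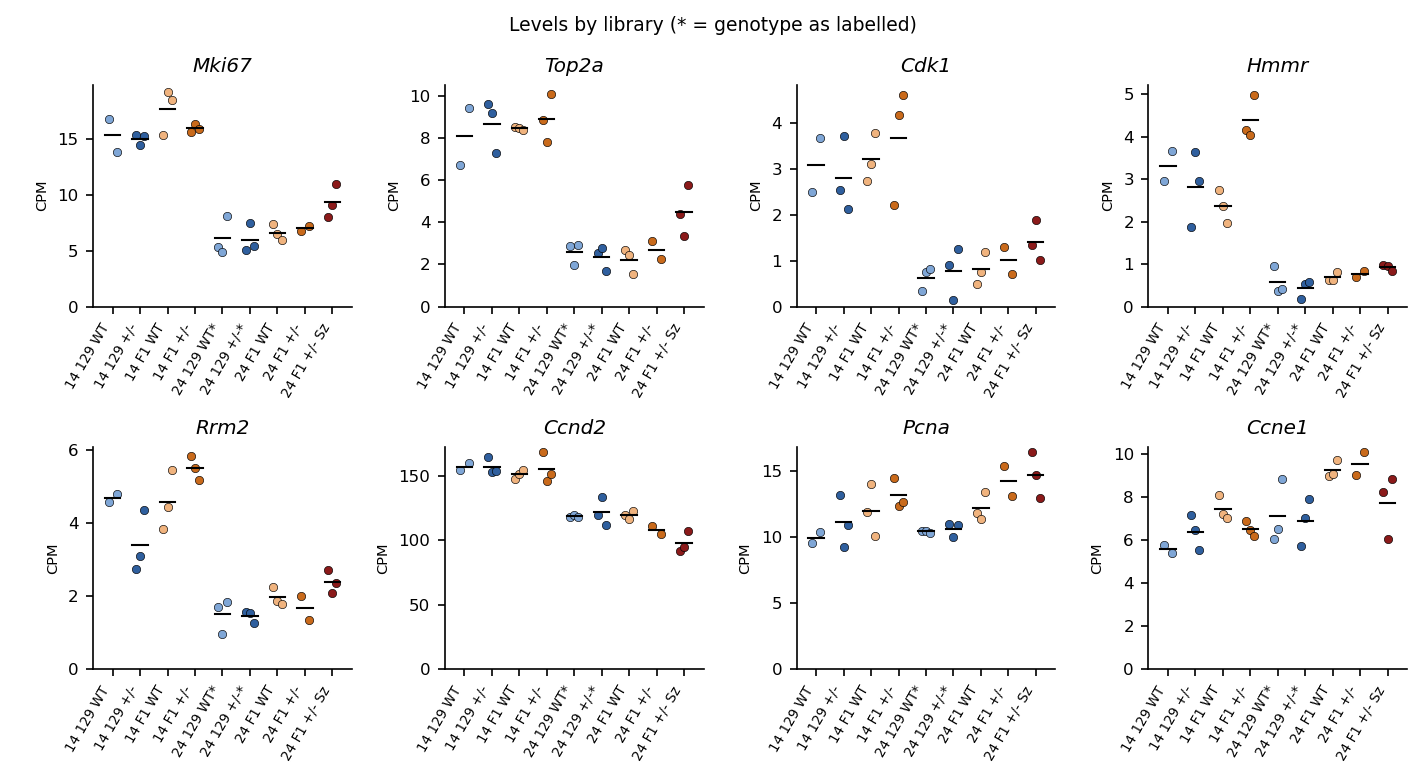
CPM (y axes, each from 0) of 8 genes in every library (points) by group (x axis, age in days, strain and genotype), with the group mean as a short line. Mki67, Top2a, Cdk1, Hmmr and Rrm2 drop to a low level at P24 in both strains, Ccnd2 drops by less, and Pcna and Ccne1 do not drop.

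Grouped by promoter letters, the 21 genes with a CHR in their window had median changes with age of -1.35 in 129S6 and -1.29 in F1, and the 12 matched genes without it had -0.36 and -0.63. The 5 genes with an E2F match had medians of -0.30 and -0.62, and the 28 without it -1.23 and -1.03. These medians describe the genes by sequence and were not tested, and role and motif overlap, since most genes with a CHR are genes of mitosis.

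Other genes of the same pathways are given by their counts, and no difference between the lists was tested. These lists were drawn up by function, with earlier results of these data known. Of 49 further mitosis genes, 33 were lower and 2 higher in 129S6 and 30 lower and 3 higher in F1, with medians of -0.83 and -0.87. Of 40 further replication genes, 9 were lower and 0 higher in 129S6 and 11 lower and 2 higher in F1, with medians of -0.13 and -0.16, against 17.1% and 19.4% of all genes tested lower. Anln, an actin-binding cytokinesis gene that oligodendrocytes also express, rose by 0.90 ± 0.09 and 0.93 ± 0.08. Of 22 cell cycle transcription factors and pocket proteins, 8 and 9 were lower and 3 and 2 higher, with Mycn at -0.91 ± 0.12 and -0.82 ± 0.12. Of 12 G1 kinases and inhibitors, 9 and 8 were lower and 0 higher, among them Cdkn1a (p21, a CDK inhibitor), which fell by 0.78 ± 0.11 and 0.94 ± 0.11.

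Markers of several cell types moved at the same time. Of 12 neural stem and progenitor markers, 9 were lower in 129S6 and 8 in F1, and their summed level went from 466 to 506 CPM at P14 to 295 to 342 CPM at P24 in 129S6, and from 499 to 550 to 323 to 407 CPM in F1. Of 9 immature neuron markers, 9 and 8 were lower, with summed levels of 768 to 836 and then 414 to 452 CPM in 129S6 and 847 to 935 and then 430 to 497 CPM in F1. Of 12 oligodendrocyte precursor markers, 10 and 10 were lower (1260 to 1330 and then 931 to 1030 CPM in 129S6). Of 8 endothelial and pericyte markers, 7 and 6 were lower and 1 and 1 higher (242 to 256 and then 140 to 171 CPM in 129S6). Astrocyte markers were lower for 5 and 5 of 9 and higher for 1 and 1, microglia markers lower for 4 and 3 of 10 and higher for 0 and 1, and hippocampal neuron markers lower for 1 and 1 of 9 and higher for 2 and 2. Choroid plexus, ependymal and meningeal markers were lower for 2 and 2 of 10 and higher for 2 and 2, and both of the blood cell genes that passed the filter, of 6 listed, were lower in both strains. The part of each cell type in the fall of the 40 genes was not tested.

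Few genes were called between the strains, while the summed level was higher in F1, though not in every role at P24. At P14, 1 of the 40 genes was higher in F1 than in 129S6 and 0 lower, where 2.04% of all genes tested were higher and 1.66% lower. At P24, 4 were higher and 0 lower, where 3.46% were higher and 2.87% lower. By DESeq2 the counts of lower genes were also 0 at both ages, and the medians of the 40 genes by edgeR were 0.15 and 0.11, with 31 and 30 of the 40 above 0. Without the D cyclins, the 38 genes summed to 178 to 185 CPM in 129S6 and 197 to 215 CPM in F1 at P14. At P24 the sum was 114 to 122 and 127 to 138 CPM, so the strains did not overlap at either age. This sum includes Mcm6, Ccne1 and Pcna, which were called at P24. Group means of Mcm6 alone at P24 were 4.44 and 4.61 CPM in 129S6 and 10.5 and 8.71 CPM in F1. Whether the sums stay apart without these genes was not tested. By role, the F1 mean at P24 was 115% of the 129S6 mean for replication genes and 130% for mitotic kinase and passenger genes. It was 112% for APC/C genes and 108% for Mki67 with Top2a. For spindle genes it was 97.3%, and for the later cyclins with Cdk1 97.9%. At P14 spindle genes were at 111% and those cyclins with Cdk1 at 103%. Libraries of F1 lay above those of 129S6 without overlap for 1 gene at P14 (2.35% of all genes) and for 5 at P24 (3.3%), the 4 called and Kif23. All reads were aligned to mm10, and whether reads of both strains align to it equally well was not tested. Strain differences of single genes given here carry that limit.

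Mcm6, a helicase subunit (chr1:128331575-128359705, GRCm38.p6), was the gene called at both ages. It was at 5.46, 6.01, 6.21, 7.99 and 5.94 CPM in P14 129S6 and at 11.2, 10.1, 10.7, 11.1, 11 and 10.4 CPM in P14 F1. At P24 it was at 4.22, 3.93, 5.17, 6.01, 4.21 and 3.62 CPM in 129S6 and at 9.44, 10.8, 11.2, 8.31 and 9.1 CPM in F1, so the strains did not overlap at either age. The difference, F1 minus 129S6, was 0.80 ± 0.14 at P14 (adjusted p = 3.61e-04) and 1.11 ± 0.14 at P24 (adjusted p = 2.27e-06) on the log2 scale, or 1.74-fold and 2.15-fold. The other subunits lay between -0.12 (Mcm4) and 0.44 (Mcm5) at P14 and between -0.18 (Mcm4) and 0.17 (Mcm2) at P24, none called. The neighbouring genes are Lct, 3256 bases away, and Dars, 4001 bases away on the other side. Lct was at 0.31 ± 0.13 and 0.19 ± 0.12 (adjusted p = 0.262 and 0.399) and Dars at -0.01 ± 0.05 and -0.11 ± 0.05, so neither neighbour was called.

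**Figure D4:**
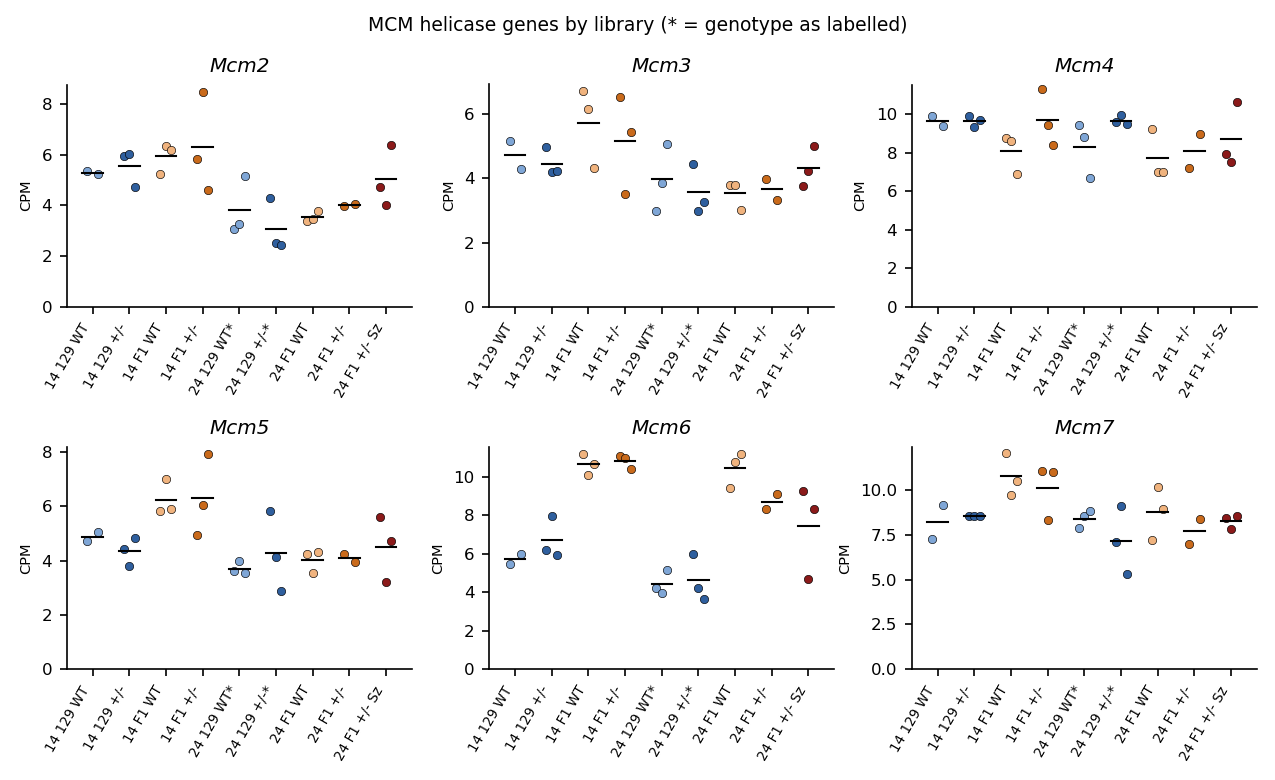
CPM (y axes, each from 0) of the 6 MCM helicase genes in every library (points) by group (x axis, age in days, strain and genotype), with the group mean as a short line. The Mcm6 libraries of F1 without seizures, at 8.31 to 11.2 CPM, lie above those of 129S6, at 3.62 to 7.99 CPM, and the other subunits overlap between strains.

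At P24 the other called genes were Ccnd1, Ccne1 and Pcna. Ccnd1 was at 30.9, 32.6, 28.4, 32.7, 41.7 and 32.8 CPM in 129S6 and 45, 47.1, 42.6, 45.1 and 44.6 CPM in F1 without overlap, a difference of 0.43 ± 0.07 (adjusted p = 3.71e-05), and at P14 the difference was 0.12 ± 0.07 (adjusted p = 0.448). Ccne1 differed by 0.44 ± 0.12 (adjusted p = 0.0169), between 6.05, 6.51, 8.82, 5.74, 7.04 and 7.91 CPM and 8.99, 9.05, 9.71, 9.01 and 10.1 CPM, again without overlap. Pcna differed by 0.32 ± 0.10 (adjusted p = 0.0494), between 10.5, 10.5, 10.3, 11, 10 and 10.9 CPM and 11.8, 11.4, 13.4, 15.4 and 13.1 CPM, without overlap. Without P24 F1 Scn1a+/- pool 2, neither Ccne1 nor Pcna was called (Ccne1 adjusted p = 0.147), which left 2 genes. The Pcna call was lost in 9 of 16 alternatives, among them leaving out any of the 6 P24 129S6 libraries, either P24 F1 Scn1a+/- pool or P24 F1 wild-type pool 3, with adjusted p up to 0.129. Markers of cycling cells gave 0.15 ± 0.11 and 0.20 ± 0.13 for Mki67 and 0.07 ± 0.15 and 0.02 ± 0.20 for Top2a, none called.

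Among the 49 further mitosis genes, 3 were higher in F1 at P14 and 5 at P24, against 2.04% and 3.46% of all genes tested. At P24 0 were lower, against 2.87%, and the higher genes were led by Pttg1, Bub1b and Nuf2. Pttg1 (securin, chr11:43420244-43427463) was at 1.57, 1.45, 1.13, 2.37 and 1.77 CPM in P14 129S6 and 8.82, 11.8, 10.7, 10.1, 9.95 and 9.15 CPM in P14 F1. The difference was 2.62 ± 0.15 at P14 and 3.74 ± 0.17 at P24. Bub1b (the checkpoint kinase relative BubR1; chr2:118598202-118641592) was the only gene of 15912 whose change with age differed between the strains by edgeR in the model of all groups. It was at 2.01, 3.29, 1.88, 2.29 and 1.95 CPM at P14 and 0.272, 0.516, 0.507, 0.364, 0.459 and 0.443 CPM at P24 in 129S6, with no overlap. In F1 it was at 3.83, 3.7, 4.08, 3.98, 3.09 and 3.7 CPM at P14 and 3.61, 3.49, 3.67, 2.51 and 3.11 CPM at P24, and the groups overlapped. The change was -2.40 ± 0.23 in 129S6 and -0.23 ± 0.16 in F1, and the difference between them 2.17 ± 0.28 (adjusted p = 1.25e-04). Nuf2, a kinetochore gene, was higher in F1 by 0.70 ± 0.17 at P14 and 0.76 ± 0.17 at P24.

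Genotype made no difference that the test detected. Scn1a+/- libraries were compared with wild-type libraries at each age and strain without seizures, and 0 of 40 genes were called in each of the 4 comparisons by edgeR and by DESeq2, where 0% of all genes tested were called. Scn1a itself was not called by edgeR in any of the 4 either. Its log2 difference was -0.18 ± 0.08 in both strains at P14. At P24 it was 0.35 ± 0.08 in 129S6 as labelled and -0.29 ± 0.08 in F1. The test could thus miss a difference of that size in the 40 genes. Larger ones could be missed too, since a Hmmr difference of 0.90 ± 0.28, given below, was not called. At an unadjusted p under 0.05 there were 0 of the 40 genes in P14 129S6, 3 in P14 F1 (Hmmr, Kif11 and Cdc20), 4 in P24 129S6 as labelled (Asf1b, Cenpf, Ccnb1 and Ccnd1) and 2 in P24 F1 (Ccna2 and Plk1). Some genes pass that threshold where nothing differs, so these counts are not read as differences. Without the seizure group in the model, 200 genes were called between the P24 F1 genotypes, and 0 of the 40 were among them. Hmmr was at 4.16, 4.04 and 4.99 CPM in P14 F1 Scn1a+/- and 2.75, 2.38 and 1.97 CPM in wild type, a log2 difference of 0.90 ± 0.28 (unadjusted p = 0.00279, adjusted p = 0.994) without overlap, and in P14 129S6 it was at -0.21 ± 0.29. The summed level of the 38 genes was 181 to 182 CPM in P14 129S6 Scn1a+/- against 178 to 185 CPM in wild type, and 197 to 215 against 203 to 211 CPM in P14 F1.

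The seizure group was set beside both other P24 F1 groups, which share the 3 seizure libraries. Against wild type, 7 of 40 genes were higher (12.4% of all genes tested) and 2 lower (10.1% of all genes). Against Scn1a+/- mice without seizures, 1 was higher (8.72% of all genes) and 0 lower (7% of all genes), and by DESeq2 also 0 lower. At an unadjusted p under 0.05 there were 6 of the 40 in that comparison. Of all 15912 genes tested, 2502 passed even the adjusted threshold there, so this count is not read as a difference. The median log2 difference of the 40 genes was 0.30 against wild type and 0.27 against Scn1a+/- without seizures, with 33 and 31 of the 40 above 0, and over all genes tested it was 0.01 in both. The seizure pools held fewer mice, and their libraries differed more from each other, with a chi-square per degree of freedom of 19.7 to 43.6 between pairs against at most 9.24 in any other group. The model gives every group the same spread of a gene, so these p-values do not measure the spread of the seizure pools alone. Over all genes tested, 3579 were called against wild type and 2502 against Scn1a+/- without seizures. With only the groups compared in the fit, from fewer libraries, 1615 and 633 were called. Genotype and seizures differ together in the comparison with wild type, and pool size differs in both.

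Top2a was at 4.4, 3.35 and 5.75 CPM in the seizure libraries, 2.67, 2.44 and 1.56 CPM in wild type and 3.12 and 2.28 CPM in Scn1a+/- without seizures, so the seizure libraries lay above all others of P24 F1. The log2 difference was 1.01 ± 0.22 against wild type (adjusted p = 8.00e-04) and 0.77 ± 0.26 against Scn1a+/- without seizures (adjusted p = 0.0424). The call against wild type held under each alternative tried, and that against Scn1a+/- was lost in 5 of 9, among them leaving out seizure pool 1 or 3 or either Scn1a+/- pool. Mki67 was at 8, 9.15 and 11 CPM in the seizure libraries, 7.43, 6.48 and 5.96 CPM in wild type and 6.75 and 7.27 CPM in Scn1a+/- without seizures, again without overlap. It differed by 0.50 ± 0.15 against wild type (adjusted p = 0.0146) and 0.41 ± 0.18 against Scn1a+/- without seizures (adjusted p = 0.123).

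Aurkb was at 0.809, 0.508 and 1.32 CPM in the seizure libraries, 0.356, 0.379 and 0.137 CPM in wild type and 0.52 and 0.389 CPM in Scn1a+/- without seizures. Its difference was 1.56 ± 0.42 against wild type (adjusted p = 0.00601) and 0.98 ± 0.49 against Scn1a+/- without seizures (adjusted p = 0.192), and these levels rest on 55 counts in the seizure libraries and 20 in wild type. Cenpf was at 3.91, 3.66 and 4.24 CPM in the seizure libraries, 2.09, 2.4 and 3.48 CPM in wild type and 3.81 and 2.83 CPM in Scn1a+/- without seizures. It differed by 0.57 ± 0.19 against wild type (adjusted p = 0.0276) and 0.27 ± 0.22 against Scn1a+/- without seizures (adjusted p = 0.472). Prc1 was at 6.29, 8.44 and 7.16 CPM in the seizure libraries, 5.16, 5.55 and 4.81 CPM in wild type and 6.32 and 6.27 CPM in Scn1a+/- without seizures, and its difference was 0.49 ± 0.14 against wild type (adjusted p = 0.0127) and 0.21 ± 0.17 against Scn1a+/- without seizures (adjusted p = 0.464). All 3 genes were apart from wild type and overlapped with Scn1a+/- without seizures. Asf1b was at 1.3, 1.17 and 0.974 CPM in the seizure libraries, 0.623, 0.547 and 0.733 CPM in wild type and 0.866 and 0.722 CPM in Scn1a+/- without seizures, apart from both groups, with a difference of 0.85 ± 0.31 against wild type (adjusted p = 0.0472) and 0.55 ± 0.37 against Scn1a+/- without seizures (adjusted p = 0.366).

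The D cyclins went in opposite directions. Ccnd1 was at 47.9, 54.8 and 59.1 CPM in the seizure libraries, 45, 47.1 and 42.6 CPM in wild type and 45.1 and 44.6 CPM in Scn1a+/- without seizures, with no overlap. Its difference was 0.26 ± 0.08 against wild type (adjusted p = 0.0209) and 0.27 ± 0.10 against Scn1a+/- without seizures (adjusted p = 0.0586). Ccnd2 was at 91.4, 94.6 and 107 CPM in the seizure libraries, 120, 117 and 123 CPM in wild type and 111 and 105 CPM in Scn1a+/- without seizures. It differed by -0.30 ± 0.07 against wild type (adjusted p = 0.00168) and -0.14 ± 0.08 against Scn1a+/- without seizures (adjusted p = 0.242), so the seizure libraries were lower than wild type without overlap. Mcm6 was at 9.26, 4.68 and 8.33 CPM in the seizure libraries, 9.44, 10.8 and 11.2 CPM in wild type and 8.31 and 9.1 CPM in Scn1a+/- without seizures, and seizure pool 2 was the lowest. It differed by -0.49 ± 0.17 against wild type (adjusted p = 0.0309) and -0.23 ± 0.20 against Scn1a+/- without seizures (adjusted p = 0.499), and without seizure pool 2 the difference from wild type was -0.25 ± 0.15 and not called (adjusted p = 0.261). Lct, its neighbour, differed by -1.44 ± 0.17 and -1.23 ± 0.19 from the same groups (adjusted p = 4.78e-08 and 9.91e-06), with 27, 9.45 and 21.6 CPM in the seizure libraries and 54.5, 54.1 and 49.6 CPM in wild type, and was again lowest in seizure pool 2.

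Of these 9 calls against wild type, Top2a alone kept its call under every alternative tried. Where only the groups compared entered the fit, 1 gene was higher and 0 lower against wild type, and 0 were higher against Scn1a+/- without seizures. Leaving out wild-type pool 1 or pool 3 left 4 higher genes. In all, 11 genes lay above wild type without overlap (15.7% of all genes) and 3 below (15.6%), and 12 and 3 lay above and below Scn1a+/- without seizures (16% and 16%). Cdc20 was at 1.66, 0.61 and 0.925 CPM in the seizure libraries, 0.623, 0.505 and 1.19 CPM in wild type and 0.606 and 0.389 CPM in Scn1a+/- without seizures, and its difference from the latter, 1.16 ± 0.54, was not called (adjusted p = 0.156). The summed level of the 38 genes was 150, 130 and 157 CPM in the 3 seizure pools, 127 to 130 CPM in wild type and 134 to 138 CPM in Scn1a+/- without seizures, so seizure pool 2 was not above the other groups.

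**Figure D5:**
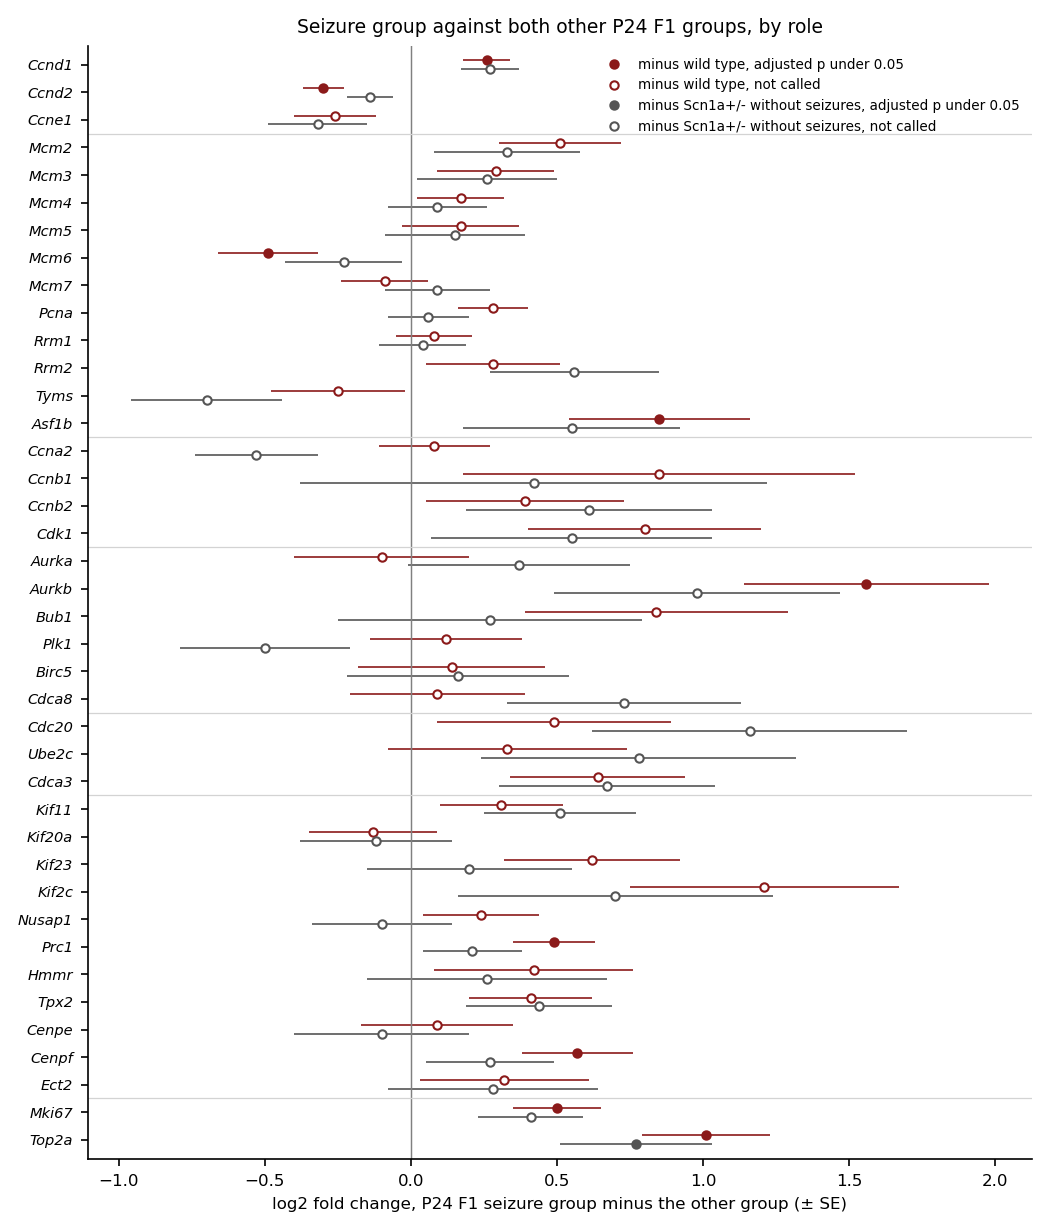
Log2 fold change (x axis, ± SE) of the P24 F1 seizure group against wild type (red) and against Scn1a+/- without seizures (grey) for the 40 genes (y axis, grouped by role), with filled points for an adjusted p under 0.05. Most points lie to the right of 0, 7 red points and the grey point of Top2a are called higher, and Ccnd2 and Mcm6 are called lower against wild type.

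Beside the younger mice, the level in the seizure group stayed low. Against P14 F1 Scn1a+/-, with the same seizure libraries and with age and seizures differing together, 18 of 40 genes were lower (14.7% of all genes tested) and 0 higher (15.9%), with 0 also by DESeq2, and the median difference was -0.56. The libraries did not overlap for 20 lower genes (16.7% of all genes) and 0 higher (17.5%). Mki67 was at 8, 9.15 and 11 CPM against 15.7, 16.4 and 15.9 CPM (-0.77 ± 0.15, adjusted p = 1.63e-04) and Top2a at 4.4, 3.35 and 5.75 CPM against 8.84, 7.8 and 10.1 CPM (-0.99 ± 0.21, adjusted p = 3.31e-04), neither with overlap. Hmmr stood at 0.989, 0.966 and 0.828 CPM against 4.16, 4.04 and 4.99 CPM (-2.24 ± 0.30, adjusted p = 3.98e-07), the largest difference of the 40. The Top2a mean was thus 50.6% of the P14 mean in the seizure group and 25% of it in P24 wild type, and that of Hmmr 21.1% and 15.8%.

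The remaining lower genes follow by role, with the seizure libraries named before those of P14 F1 Scn1a+/-. The D cyclin Ccnd2 was at 91.4, 94.6 and 107 CPM against 169, 146 and 152 CPM, with a difference of -0.67 ± 0.07. In replication, Rrm2 was at 2.7, 2.08 and 2.34 CPM against 5.84, 5.51 and 5.17 CPM (-1.21 ± 0.22), Mcm6 at 9.26, 4.68 and 8.33 CPM against 11.1, 11 and 10.4 CPM (-0.54 ± 0.18) and Tyms at 2.25, 1.78 and 2.09 CPM against 3.01, 4.71 and 2.59 CPM (-0.71 ± 0.25). Cdk1 was at 1.35, 1.88 and 1.02 CPM against 2.21, 4.17 and 4.62 CPM (-1.35 ± 0.36) and Ccna2, which overlapped, at 4, 4.93 and 3.21 CPM against 8.67, 4.84 and 8.41 CPM (-0.88 ± 0.19). Of these only the Ccna2 libraries overlapped with P14, and the next 3 are kinases or passenger genes. Aurkb was at 0.809, 0.508 and 1.32 CPM against 1.77, 2.82 and 1.85 CPM (-1.25 ± 0.35), Bub1 at 0.584, 1.02 and 0.633 CPM against 1.95, 2.42 and 1.94 CPM (-1.48 ± 0.40) and Birc5 at 2.11, 1.22 and 1.56 CPM against 4.95, 3.5 and 1.76 CPM (-1.05 ± 0.32). Ube2c of the APC/C was at 1.08, 0.813 and 0.536 CPM against 2.21, 1.35 and 1.85 CPM (-1.17 ± 0.39), and the spindle genes Cenpf and Cenpe at 3.91, 3.66 and 4.24 CPM against 7.96, 8.74 and 6.84 CPM (-0.98 ± 0.18) and 2.47, 1.68 and 2.97 CPM against 5.93, 4.98 and 4.71 CPM (-1.13 ± 0.26). Kif11, Ect2 and Nusap1 were also lower, at -0.90 ± 0.21, -0.95 ± 0.29 and -0.59 ± 0.21 on the log2 scale. Pcna, Prc1, Asf1b and Ccnd1 were not called, at 0.16 ± 0.13, -0.11 ± 0.15, 0.22 ± 0.34 and 0.19 ± 0.09.

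Other cell cycle genes were called in both directions in the seizure group, at shares near or below those of all genes tested (12.4% higher and 10.1% lower) for mitosis and replication. Of the 49 further mitosis genes, 6 were higher and 3 lower than in wild type, among them Kif18a, a kinesin that limits chromosome oscillation (2.19 ± 0.26), Racgap1, a cytokinesis regulator (0.93 ± 0.16), and Cdc25b, a phosphatase that activates Cdk1 (-0.78 ± 0.11). Of the 40 further replication genes, 4 were higher and 1 lower, with the licensing factor Cdt1 at 1.04 ± 0.28 and the replication checkpoint gene Clspn at -1.14 ± 0.25. Cdkn1a, the CDK inhibitor p21, was at 18, 30.9 and 31.9 CPM in the seizure libraries, 8.9, 10.3 and 10.2 CPM in wild type and 8.05 and 8.49 CPM in Scn1a+/- without seizures, without overlap. It was higher by 1.46 ± 0.14 and 1.69 ± 0.17 (adjusted p = 6.40e-10 and 7.09e-09). E2f3, an E2F factor, was higher by 0.44 ± 0.08 against wild type.

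Some cell type markers also moved with the seizure group, and their counts are to be read against 12.4% of all genes higher and 10.1% lower than in wild type. Against wild type, 6 of 12 stem and progenitor markers were higher and 0 lower (summed level 374 to 496 against 323 to 331 CPM), with Tnc at 1.10 ± 0.12 and Fabp7 at 0.95 ± 0.16. Of 9 immature neuron markers, 6 were higher and 0 lower (637 to 694 against 430 to 476 CPM), with Sox11 at 1.13 ± 0.09. Of 12 oligodendrocyte precursor markers, 0 were higher and 1 lower (894 to 1020 against 953 to 1030 CPM). Astrocyte markers were higher for 4 of 9 and lower for 4, with Gfap at 2.31 ± 0.10 and Vim at 2.12 ± 0.08, microglia markers higher for 2 of 10 (445 to 556 against 452 to 487 CPM) and endothelial and pericyte markers higher for 3 of 8 (157 to 215 against 168 to 175 CPM). Against Scn1a+/- without seizures, 4 progenitor markers were higher and 1 lower (338 to 407 CPM), 4 immature neuron markers higher and 0 lower (469 to 497 CPM), and Gfap was at 1.86 ± 0.12. Hippocampal neuron markers were higher for 3 of 9 and lower for 1 against wild type, choroid plexus, ependymal and meningeal markers higher for 1 of 10, and blood cell genes higher or lower for 0 of 2. Tnc, Fabp7 and Sox11 were named for their small adjusted p within their lists. Beside P14 F1 Scn1a+/-, the progenitor marker Eomes was at -1.90 ± 0.24 and the immature neuron marker Dcx at -1.22 ± 0.08 in the seizure group. From P14 to P24 in F1 without seizures, Eomes changed by -1.81 ± 0.19 and Dcx by -1.33 ± 0.06. The part of these cell types in the differences of the 40 genes was not tested.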

How the data were processed

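RNA from pooled mouse hippocampi was measured by RNA-seq in 25 libraries of 9 groups, with TRIzol extraction and the TruSeq RNA Library Preparation Kit v2, per the labels' protocols. The deposited files hold the authors' raw counts of reads per gene symbol, made with CASAVA, TopHat2 2.1.0 and HTSeq 0.6.1p1 on mm10, per the submitters' processing notes; the strand setting is not given in the sources used here. A normalized table of the whole series was not used.

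The counts were fitted with edgeR 4.0.16 (R 4.3.3): TMM scaling, filterByExpr with a minimum count of 10, a 9-group quasi-likelihood model with 16 residual degrees of freedom, and Benjamini-Hochberg adjustment over 15912 genes. Age and strain contrasts average both genotypes. CPM use TMM effective library sizes, whose factors were 0.964 to 1.02, and a standard error is the log2 change divided by the square root of F. Total counts were 7436442 to 25520050 per library, so levels under 1 CPM rest on few counts. Intervals of pooled counts are exact and cover counting error only. The fit was tested on simulated data with the same spread in every group, so that test does not cover the larger differences between the seizure pools.

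Alternatives were RLE size factors, DESeq2 1.42.0, no filter on low counts, fits of only the groups compared or without the seizure group, leaving out each library, plain library totals, a minimum summed count of 50 or 500, and a motif window without the bases after the start. The members and lists were chosen with earlier results of these data known. All 40 genes are described by role, and up to 3 called genes per role and comparison with the smallest adjusted p are given in full; Bub1b, Pttg1, Nuf2, Lct and Dars were named after their values were seen. Coordinates are RefSeq GRCm38.p6 and exon lengths GENCODE vM39. For 10 of the 40 genes another counted gene overlaps.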

Additional observations from a re-analysis of the deposited data

Results flagged for a closer look

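Bub1b, a relative of the spindle checkpoint kinases and not among the 40 genes, changed with age by -2.40 ± 0.23 in 129S6 (adjusted p = 4.12e-10) and by -0.23 ± 0.16 in F1 (adjusted p = 0.262) on the log2 scale. The difference between the strains in that change was itself tested and came to 2.17 ± 0.28 (edgeR interaction, adjusted p = 1.25e-04). It passed in 27 of 27 alternatives, at 1.98 to 2.34, with adjusted p between 2.64e-06 and 0.00229. Its level in F1 without seizures was 2.51 to 4.08 CPM over both ages, and in 129S6 1.88 to 3.29 CPM at P14 and 0.272 to 0.516 CPM at P24. In the P24 F1 seizure libraries it was at 2.52, 2.08 and 2.14 CPM, a difference of -0.67 ± 0.20 from wild type (adjusted p = 0.0128) that was lost without seizure pool 2 (adjusted p = 0.0547). The checkpoint kinase Bub1, a member of the 40, fell in both strains, by 2.23 ± 0.37 and 1.72 ± 0.33.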

How the results depend on the processing

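Of 324 counts recomputed under alternatives, 308 stayed within 1.5 times the reported count and 16 did not. Many of the reported counts were 0, among them all those of genotype and of the difference of the age change between strains. A count of 0 that stayed 0 was scored as unchanged. Of 1319 log2 changes of called genes among the 40 recomputed under alternatives, 1221 kept their call, 98 lost it and 0 reversed. Leaving out each library in turn gave 26 to 30 lower genes with age in 129S6 and 28 to 30 in F1, 1 to 2 higher genes between strains at P14 and 2 to 4 at P24. In the seizure group it gave 4 to 6 higher and 1 to 2 lower genes against wild type, 0 to 1 higher and 0 to 1 lower against Scn1a+/- without seizures, and 0 to 1 higher and 14 to 21 lower against P14. With only the groups compared in the fit, the seizure group had 1 higher and 0 lower genes against wild type and 0 higher against Scn1a+/- without seizures, from fewer libraries. The cause of the other moves was not tested. The calls kept in each alternative were 24 of 30 with age in 129S6, 28 of 30 in F1, 1 of 1 and 2 of 4 between strains, and 1 of 9, 0 of 1 and 11 of 18 for the seizure group against wild type, Scn1a+/- without seizures and P14. Over all genes tested, the change with age differed between strains for 1 gene in the model of all groups and for 28 higher and 14 lower without the seizure group. The genotypes of P24 F1 differed for 0 genes and for 92 higher and 108 lower without the seizure group. No paired analysis was possible because library numbers in the titles run on from group to group and no 2 groups share one. Where a group is left with 1 library, that library is assumed to vary like the other groups. Depth limits the rarest genes, Ccnb1 above all.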

Other observations

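Of 22 cell cycle transcription factors and pocket proteins, 8 were lower and 3 higher at P24 in 129S6 and 9 lower and 2 higher in F1, with medians of -0.08 and -0.20. Foxm1, a factor that drives mitotic genes, changed by -1.07 ± 0.17 in F1 (adjusted p = 4.12e-06), and E2f8, an atypical E2F repressor, by -1.58 ± 0.26 in 129S6 (adjusted p = 1.17e-05). Tfdp2, a partner of E2F factors, went the other way, at 0.36 ± 0.06 in 129S6 and 0.42 ± 0.06 in F1. Each gene named is among the 3 with the smallest adjusted p of its list in that comparison. Among genes of S phase outside the 40, Tk1 (thymidine kinase) changed by -1.59 ± 0.33 and Chaf1b (a histone chaperone subunit) by -1.93 ± 0.42 in 129S6, and Uhrf1 (which maintains DNA methylation) by -0.97 ± 0.26 in 129S6 and -1.53 ± 0.25 in F1. Cdk4, the kinase partner of D cyclins, was at -0.42 ± 0.06 and -0.50 ± 0.06 with age and at 0.28 ± 0.08 in the seizure group against wild type. Myc was higher in the seizure group than in Scn1a+/- without seizures, at 0.78 ± 0.17 (adjusted p = 8.96e-04).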
